A study of Oryza sativa Japonica Group with 4 samples.

Results

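The Aux/IAA proteins and the auxin response factors (ARFs) of rice endosperm were examined across 2 growth temperatures. The members were taken by the gene description in the deposited table, as every transcript model described as OsIAA or as an auxin response factor. This gave 115 of 67393 transcript models, which belong to 60 of 56797 gene IDs: 60 transcript models of 31 Aux/IAA genes and 55 transcript models of 29 ARF genes.

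ARFs are transcription factors that bind auxin response elements in promoters. At low auxin, Aux/IAA proteins bind the ARFs and recruit the corepressor TOPLESS, which keeps the target genes repressed. Auxin joins the Aux/IAA protein to an F-box receptor of the TIR1/AFB family, the Aux/IAA protein is degraded by the proteasome, and the ARFs are released. Many Aux/IAA genes are themselves targets of this pathway, so their transcripts are often used as a readout of auxin response, and auxin is known to accumulate in the rice grain during filling.

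Endosperm of the japonica cultivar Nipponbare was sequenced in 4 poly(A) RNA libraries, 2 per temperature. All plants grew at 28°C by day and 22°C by night, with 12 h of light, until 5 days after pollination. The control plants stayed at that temperature, the high temperature plants were moved to 35°C by day and 28°C by night, and both were sampled 5 days later. The labels call the tissue endosperm. The study's methods state that fresh seeds were sampled and that the RNA came from endosperm, without describing how the endosperm was separated. No source states that the replicates came from separate plants, so the spread between replicates may be partly technical.

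Summed over all transcript models, the counts came to 6395533 to 11492692 per library, and they are called reads below. Models of a gene share exons, so a read may have been counted under several models. Shares and CPM of total reads carry this limit. Transcripts described as glutelin or prolamin, the storage proteins of the starchy endosperm, took 37.1% and 37.2% of the reads of the control libraries and 23.6% and 40.3% of those from high temperature (here and below, replicate 1 before replicate 2). Oleosin and late embryogenesis abundant transcripts, which mark embryo and aleurone, took 0.146% and 0.222% in the controls and 0.190% and 0.172% at high temperature. Of these transcripts, 37 of 41 had reads. The sum joins unlike patterns. Oleosin transcripts took 0.104% and 0.0970% in the controls and 0.0796% and 0.121% at high temperature. Late embryogenesis abundant transcripts took 0.0421% and 0.125%, against 0.111% and 0.0511%. Chlorophyll A-B binding, photosystem and Rubisco small chain transcripts, which mark the green pericarp, took 0.239% and 0.179% against 0.293% and 0.152%, with reads for 101 of 104. In the controls, chlorophyll A-B binding (0.159% and 0.0737%) and Rubisco small chain transcripts (0.0186% and 0.0112%) were higher in replicate 1. Photosystem transcripts (0.0614% and 0.0937%) were higher in replicate 2. No description held the words granule-bound starch synthase. The libraries stood apart within each temperature. A pair of transcripts without a known function, LOC_Os09g00999.1 with LOC_Os09g01000.1, made up 8.51% and 25.9% of the control reads, against 35.2% and 10.05% at high temperature. Distances between libraries used unscaled counts, with that pair included, over 27270 to 29680 transcripts with enough expected reads in both libraries. Control replicate 1 was closest to high temperature replicate 2 (chi-square per degree of freedom of 18.6) and control replicate 2 to high temperature replicate 1 (24.8). The replicates differed by 71.3 within the control and 60.3 within high temperature.

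The reads of the Aux/IAA and ARF families followed the same split when left unscaled. The Aux/IAA models held 393 and 232 CPM (reads per 1000000 reads of the library) in the controls, and 238 and 320 at high temperature. The ARF models held 1045 and 631 CPM in the controls, and 646 and 886 at high temperature. Both families were thus higher in the control and the high temperature library where the pair of abundant transcripts took fewer reads. All levels below are therefore RPKM (CPM per kilobase of transcript) computed from the counts and divided by the TMM factor of the library, which estimates the composition of the library from the bulk of the transcripts. On this scale the leading transcript models of the 31 Aux/IAA genes summed to 143 and 148 TMM-scaled RPKM in the controls and 132 and 148 at high temperature, and those of the 29 ARF genes to 130 and 138 and to 122 and 130. The sums of the 2 temperatures overlapped for the Aux/IAA genes and just overlapped for the ARF genes. In bulk RNA, fewer cells of a type and less RNA per cell cannot be told apart.

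For each gene, the transcript model with the highest mean RPKM is given as the leading model. Of the 31 Aux/IAA genes, 6 had a mean of at least 10 TMM-scaled RPKM, 9 had 1 to 10, and 16 had less than 1. OsIAA21 was the highest, followed by OsIAA5, OsIAA17, OsIAA29, OsIAA10 and OsIAA3. The order was loose, because the ranges over the 4 libraries overlapped for 29 of the 30 neighbouring pairs. The exception was OsIAA30 (3.39 to 5.18 TMM-scaled RPKM) above OsIAA15 (1.14 to 2.36). The 3 highest genes of a library made up 35.2% to 46.7% of the family's summed RPKM.

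**Figure D1:**
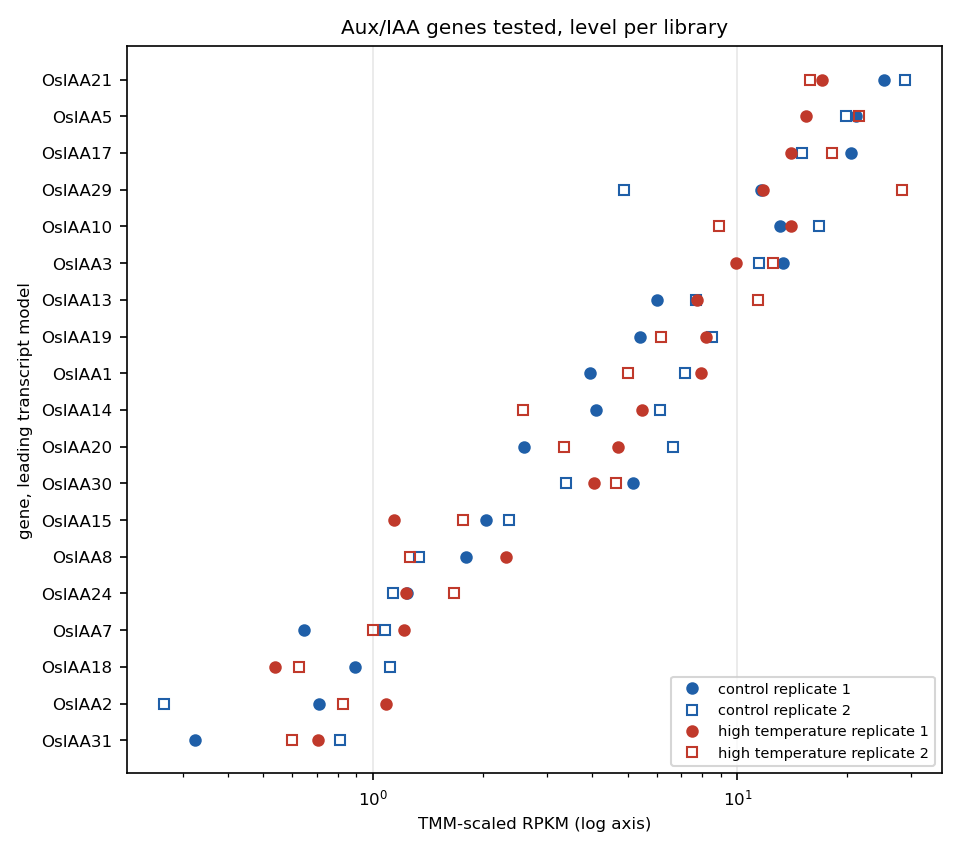
TMM-scaled RPKM (log axis) of the leading transcript model of the 19 Aux/IAA genes that passed the filter on low counts, 1 point per library, blue for control and red for high temperature, filled circles for replicate 1 and open squares for replicate 2. OsIAA21 has both red points (17.1 and 15.8) below both blue points (25.3 and 28.8), and OsIAA29 spans from 4.87 to 28.3, the widest range among the 6 highest genes.

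OsIAA21 (LOC_Os06g22870.1) held 25.3 and 28.8 TMM-scaled RPKM in the controls, and 17.1 and 15.8 at high temperature. Both high temperature libraries lay below both controls, with group means of 27.1 ± 2.49 and 16.4 ± 0.877 (SD, n = 2 each). Such separations, named here and below, were common. Of all transcripts that passed the filter on low counts, 19.1% lay above both controls and 17.7% below in this way. OsIAA5 (LOC_Os01g48444.1) held 21.1 and 19.8 in the controls and 15.4 and 21.6 at high temperature. OsIAA17 (LOC_Os05g14180.1) held 20.5 and 15.1, against 14.0 and 18.2. Neither OsIAA5 nor OsIAA17 separated the temperatures in these leading models, since their replicates differed by as much as the groups. The other model of OsIAA17, LOC_Os05g14180.2, held 18.25 and 13.97 against 10.20 and 13.88, with both high temperature libraries below by a narrow margin.

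OsIAA29 (LOC_Os11g11430.2) held 11.6 and 4.87 TMM-scaled RPKM in the controls and 11.8 and 28.3 at high temperature. The group means were 8.24 ± 4.76 and 20.01 ± 11.7 (SD, n = 2 each), so the temperatures separated by a narrow margin between control replicate 1 and high temperature replicate 1, and high temperature replicate 2 stood alone. Within each temperature the library with more OsIAA29 was the one with the smaller share of reads in the pair of abundant transcripts (8.51% and 10.05%), and the part of that share in the result was not tested. The other model of the gene, LOC_Os11g11430.1, held 13.1 and 4.94 against 9.09 and 24.2, and there the groups overlapped. OsIAA29 has been linked to grain filling in rice. The genes with the consecutive locus numbers LOC_Os11g11410 (OsIAA27) and LOC_Os11g11420 (OsIAA28) had at most 3 reads per library in their leading models, against 26 to 179 reads for LOC_Os11g11430.2.

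OsIAA10 (LOC_Os02g57250.2), the rice protein that the P2 protein of rice dwarf virus binds, held 13.1 and 16.8 TMM-scaled RPKM in the controls and 14.0 and 8.88 at high temperature. OsIAA3 (LOC_Os01g13030.2) held 13.3 and 11.47 against 9.89 and 12.6. Both overlapped between the temperatures in these leading models. The other model of OsIAA10, LOC_Os02g57250.1, held 12.5 and 17.4 against 12.1 and 7.69, with both high temperature libraries below. OsIAA13 (LOC_Os03g53150.1), known from a mutant with fewer lateral roots, held 6.03 and 7.69 in the controls and 7.75 and 11.4 at high temperature, so that the groups touched without overlapping.

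OsIAA2, OsIAA15 and OsIAA18 separated the temperatures at low levels in their leading models. OsIAA2 (LOC_Os01g09450.2) held 0.711 and 0.267 TMM-scaled RPKM in the controls and 1.09 and 0.826 at high temperature. OsIAA15 (LOC_Os05g08570.2) held 2.05 and 2.36 against 1.14 and 1.77, and OsIAA18 (LOC_Os05g44810.3) held 0.890 and 1.11 against 0.539 and 0.626. The temperatures overlapped in LOC_Os01g09450.1 of OsIAA2, in LOC_Os05g08570.3, LOC_Os05g08570.4 and LOC_Os05g08570.6 of OsIAA15 and in LOC_Os05g44810.1 of OsIAA18. LOC_Os05g08570.1 and LOC_Os05g44810.2 had both high temperature libraries below. The remaining 9 Aux/IAA genes tested were OsIAA1, OsIAA7, OsIAA8, OsIAA14, OsIAA19, OsIAA20, OsIAA24, OsIAA30 and OsIAA31. Their leading models had means of 0.611 to 7.07 TMM-scaled RPKM, and the temperatures overlapped for each of them.

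The low end of the family was close to the detection limit. OsIAA11, OsIAA9, OsIAA12, OsIAA22, OsIAA27, OsIAA16, OsIAA28 and OsIAA26 had 1 to 9 reads in the 4 libraries together in their leading models, OsIAA6 had 15 and OsIAA4 had 17. OsIAA23, which in roots maintains the quiescent centre, had 22 and 6 reads in the controls and 2 and 4 at high temperature in its leading model (LOC_Os06g39590.1). That model did not pass the filter on low counts, and neither did the leading model of OsIAA25 (30 reads in all). Another model of each gene passed, with log2 fold changes (high temperature over control) of -0.31 for OsIAA23 and -0.11 for OsIAA25. Differences among these leading models were not detectable at this depth.

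Of the 25 ARF genes with reads, 4 had a mean of at least 10 TMM-scaled RPKM, 16 had 1 to 10 and 5 had less than 1. The 3 highest made up 30.3% to 32.4% of the family's summed RPKM in a library. LOC_Os04g56850, the lowest of them, did not pass the filter on low counts. Over the 24 neighbouring pairs of the order, the ranges overlapped for 21. The other 4 ARF genes, LOC_Os07g08520, LOC_Os07g08530, LOC_Os07g08540 and LOC_Os07g08600, had 0 of 33724011 reads, which allows up to 0.0890 CPM for each (3 reads, counting error only). The descriptions number some ARFs (14, 7, 15 and others) and leave most without a number, and 18 stands for a pair of genes, so the ARF genes are given by locus.

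**Figure D2:**
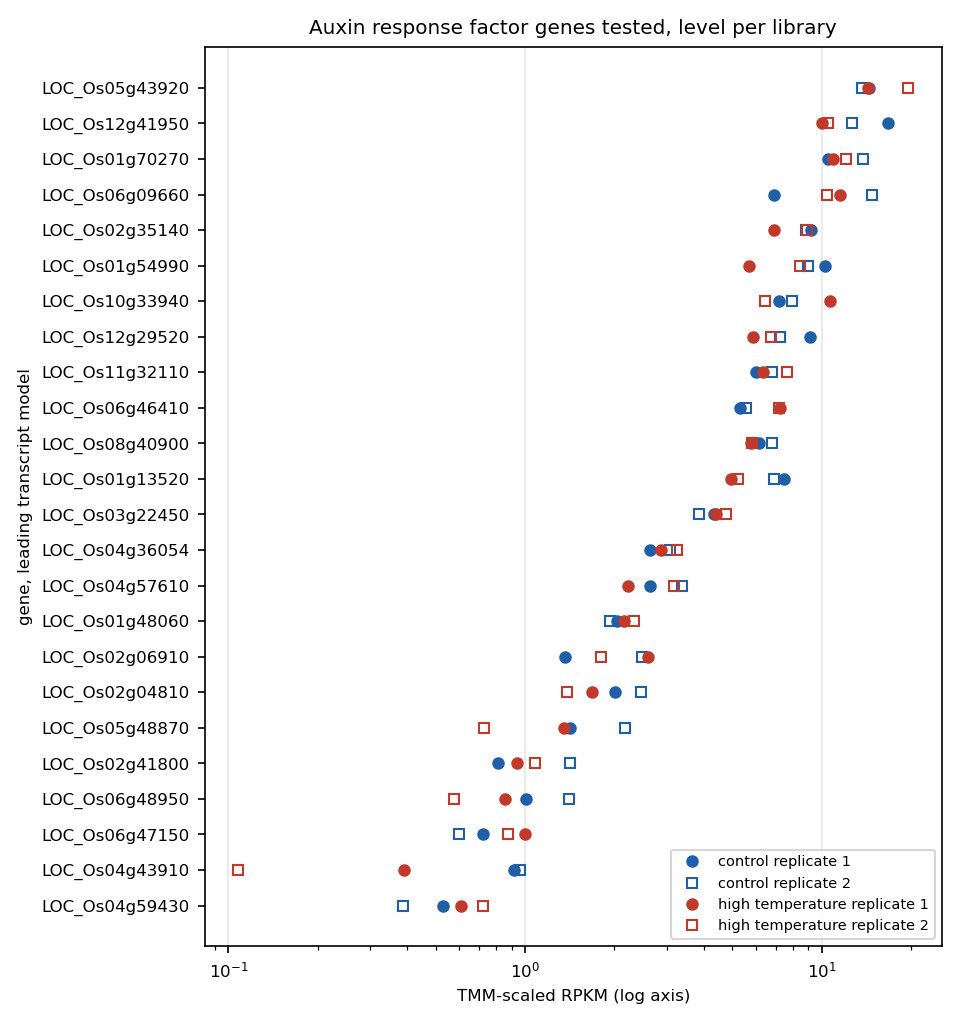
TMM-scaled RPKM (log axis) of the leading transcript model of the 24 ARF genes that passed the filter on low counts, 1 point per library, with the same colours and symbols for temperature and replicate. LOC_Os04g43910 has both high temperature points (0.390 and 0.108) below both controls (0.920 and 0.960), while LOC_Os06g09660 has its lowest and its highest value (6.93 and 14.7) in the 2 controls.

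The highest ARF gene was LOC_Os05g43920 (described as auxin response factor 14), with 14.5 and 13.6 TMM-scaled RPKM in the controls and 14.4 and 19.6 at high temperature. LOC_Os12g41950 followed with 16.7 and 12.6 against 10.05 and 10.5. For LOC_Os05g43920 the groups overlapped, and for LOC_Os12g41950 both high temperature libraries were below both controls (14.6 ± 2.85 and 10.3 ± 0.316, SD, n = 2 each). LOC_Os01g70270 held 10.5 and 13.7 in the controls and 10.9 and 12.1 at high temperature. LOC_Os06g09660 held 6.93 and 14.7, against 11.52 and 10.4. In both, the control replicates spanned the high temperature values.

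LOC_Os02g35140 (described as auxin response factor 7) held 9.23 and 8.83 TMM-scaled RPKM in the controls and 6.89 and 8.92 at high temperature, which overlapped. LOC_Os01g54990 held 10.2 and 8.96 against 5.67 and 8.44, with both high temperature libraries below. LOC_Os06g46410 was among the genes with the closest replicates, with 5.31 and 5.55 in the controls and 7.25 and 7.20 at high temperature, so that the difference between the temperatures was larger than the spread within them. LOC_Os01g13520 (described as auxin response factor 1) held 7.44 and 6.90 against 4.94 and 5.22, again with both high temperature libraries below.

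The remaining separations were seen in less expressed genes or by a small margin. Of all genes tested by their leading model, 19.7% separated upward and 17.1% downward. In the leading models, both high temperature libraries were above the controls for LOC_Os06g47150, LOC_Os04g59430, LOC_Os03g22450 and LOC_Os01g48060. They were below for LOC_Os05g48870, LOC_Os06g48950, LOC_Os12g29520, LOC_Os08g40900 and LOC_Os02g04810. The temperatures overlapped for LOC_Os10g33940, LOC_Os11g32110, LOC_Os04g36054, LOC_Os04g57610, LOC_Os02g06910 and LOC_Os02g41800, with means from 1.06 to 8.08 TMM-scaled RPKM. At the low end, LOC_Os04g43910 held 36 and 15 reads in the controls and 7 and 2 at high temperature, which is 0.920 and 0.960 against 0.390 and 0.108 TMM-scaled RPKM.

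Whether temperature changed the members was tested by the quasi-likelihood method of edgeR, applied to the counts of the 27358 transcripts that reached 1 CPM in 2 or more libraries. Of the members, 35 of 60 Aux/IAA models (19 of 31 genes by their leading model) and 47 of 55 ARF models (24 of 29 genes) passed this filter. None of them had a Benjamini-Hochberg adjusted p under 0.05 over all transcripts tested, and the share called among all transcripts was 0% as well. A block that crosses the replicate numbers called 2 Aux/IAA and 1 ARF models among 828 transcripts. It was chosen after seeing the data, to join the libraries that were closest in them, and the labels do not give this pairing. Its calls therefore cannot show whether the result depends on the design. The lowest adjusted p was 0.501 among the Aux/IAA models and 0.599 among the ARF models (edgeR). At an unadjusted p under 0.05, 2 Aux/IAA models were higher and 2 lower at high temperature, and 0 ARF models were higher and 2 lower, against 4.15% higher and 2.79% lower among all transcripts tested. These 6 of 82 models are near the background share. DESeq2 and limma on log2(RPKM + 1) also called 0 members. The limma fit used RPKM without TMM scaling, which leaves the composition of the libraries in its values.

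Among the Aux/IAA models tested, the 2 high temperature libraries were each above the 2 controls for 4 of 35 (11.4%) and below for 8 (22.9%), against 19.1% above and 17.7% below among all transcripts tested. Among the ARF models they lay above for 8 of 47 (17.0%) and below for 15 (31.9%). Counted once per gene by the leading model, 3 of 19 Aux/IAA genes lay above (15.8%) and 3 below (15.8%). Of 24 ARF genes, 5 lay above (20.8%) and 9 below (37.5%). Among all genes tested in this way, 19.7% lay above and 17.1% below. The median log2 fold change (high temperature over control) was -0.15 for the Aux/IAA models and -0.07 for the ARF models, against 0.00 for all transcripts tested. Counted once per gene by the leading model, the median was -0.0024 for the Aux/IAA genes and -0.07 for the ARF genes. With the reads of all models summed per gene, it was -0.15 for 22 Aux/IAA genes and 0.0096 for 25 ARF genes. Both medians thus depended on how the models of a gene were counted. Over the ARF models, the median became 0.11 when control replicate 2 was left out and -0.19 when control replicate 1 was, so its direction depended on the control library. By leading model, the log2 fold change was above 0 for 9 Aux/IAA genes and below for 10, and above 0 for 11 ARF genes and below for 13.

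**Figure D3:**
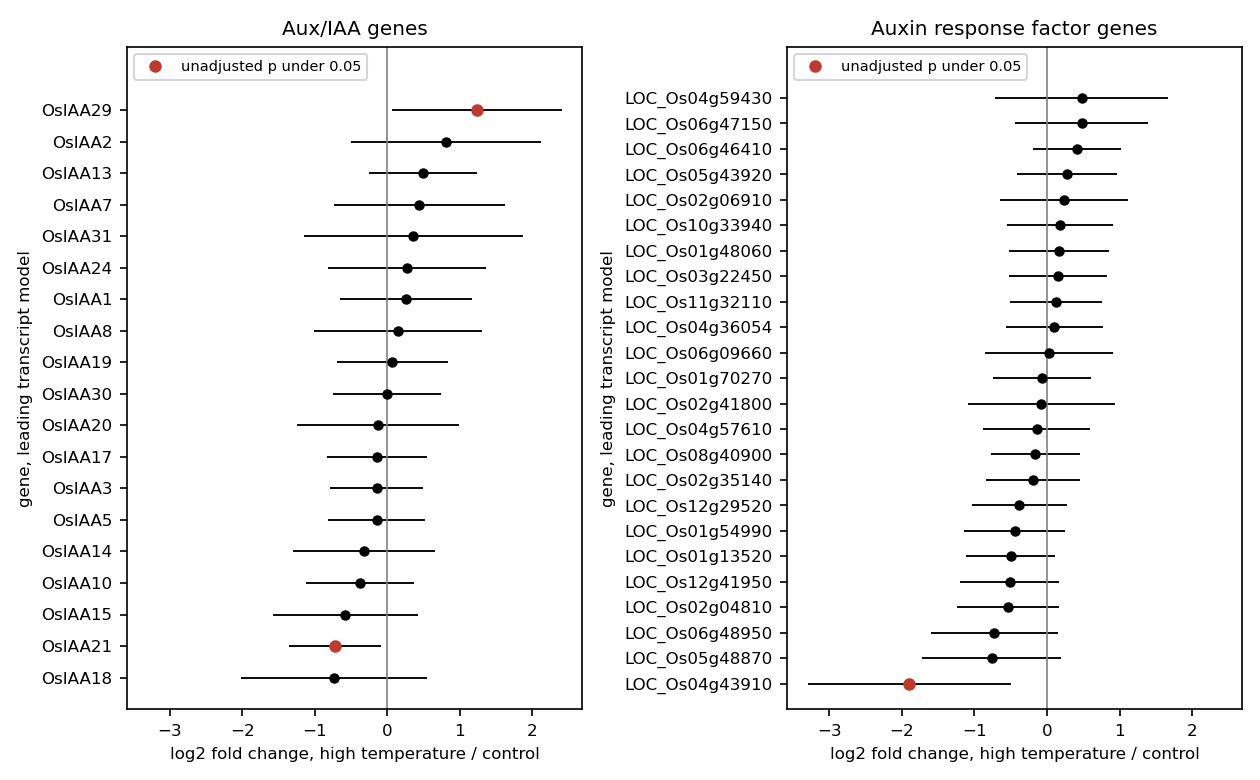
Log2 fold change (high temperature over control, edgeR) of the leading transcript model of 19 Aux/IAA genes (left) and 24 ARF genes (right), with 95% intervals from the quasi-likelihood fit. Red marks an unadjusted p under 0.05, which OsIAA29, OsIAA21 and LOC_Os04g43910 had, and none of the genes passed the adjusted threshold.

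The 3 genes with an unadjusted p under 0.05 in their leading model were OsIAA29, OsIAA21 and LOC_Os04g43910. The log2 fold change of OsIAA29 was 1.23 (standard error 0.51, edgeR adjusted p = 0.715). It was 0.44 without high temperature replicate 2 and 2.03 without control replicate 1. That of OsIAA21 was -0.72 (standard error 0.28, edgeR adjusted p = 0.686), and it ran from -0.81 to -0.62 when each library was left out in turn. OsIAA21 thus kept its direction and size over the 4 libraries, without passing the threshold in any of these fits.

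LOC_Os04g43910 had a log2 fold change of -1.90 (standard error 0.61, edgeR adjusted p = 0.599) from 60 reads in all. Leaving out high temperature replicate 1 gave -3.06 and leaving out the other gave -1.28, and without either control it did not pass the filter on low counts. Also among the lowest ARF fold changes were LOC_Os05g48870 (described as auxin response factor 15) with -0.76 (standard error 0.42) and LOC_Os06g48950 (described as auxin response factor 19) with -0.73 (standard error 0.38), which had adjusted p of 0.792 and 0.780 (edgeR). The highest ARF fold changes were 0.48 for LOC_Os04g59430 (standard error 0.52), 0.48 for LOC_Os06g47150 (standard error 0.40) and 0.41 for LOC_Os06g46410 (standard error 0.26), with 95% intervals that all included 0.

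Among the other Aux/IAA genes, OsIAA2 (LOC_Os01g09450.2) had a log2 fold change of 0.81 (standard error 0.57) with 20 and 3 reads in the controls and 14 and 11 at high temperature. OsIAA13 had 0.49 (standard error 0.32). At the lower end, OsIAA18 (LOC_Os05g44810.3) had -0.74 (standard error 0.56) and OsIAA15 (LOC_Os05g08570.2) -0.58 (standard error 0.43). OsIAA18 had 18 and 9 reads in the controls and 5 and 6 at high temperature, and OsIAA15 had 39 and 18 against 10 and 16. The intervals of these 4 leading models included 0. Over all tested models of a gene, the log2 fold change ran from -0.15 to 0.81 for OsIAA2 and from -0.62 to 0.47 for OsIAA15.

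The intervals also say how large a change the data could have missed. In the leading models of 5 of 19 Aux/IAA genes and 11 of 24 ARF genes, the 95% interval of the log2 fold change lay inside -1 to 1. A change of 2-fold or more was thus outside it. These included OsIAA5 (-0.81 to 0.52), OsIAA17 (-0.84 to 0.54) and OsIAA3 (-0.79 to 0.50) in the Aux/IAA family. In the ARF family they included LOC_Os05g43920 (-0.41 to 0.96), LOC_Os01g70270 (-0.74 to 0.60) and LOC_Os06g09660 (-0.85 to 0.91). For the other genes a change of 2-fold in at least 1 direction was within the interval. It was also within the interval of the other OsIAA17 model, LOC_Os05g14180.2 (-1.13 to 0.28).

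Several members have more than 1 transcript model, and the models of a gene share exons, so their counts are not separate measurements. The table lists several models for 28 of the 60 genes, and for 21 of these at least 2 models were tested. All tested models of a gene had the same sign in 14 of the 21, and the models differed by a median of 0.28 on the log2 scale. The 4 models of LOC_Os11g32110 (0.13 to 0.21) and the 5 of LOC_Os12g29520 (-0.48 to -0.37) were close to each other, while the 4 of LOC_Os06g47150 ran from 0.15 to 0.57. The widest spreads were found for OsIAA18 (-2.22 to -0.74) and LOC_Os05g48870 (-1.47 to -0.15), whose models had 1 to 62 reads per library.

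**Figure D4:**
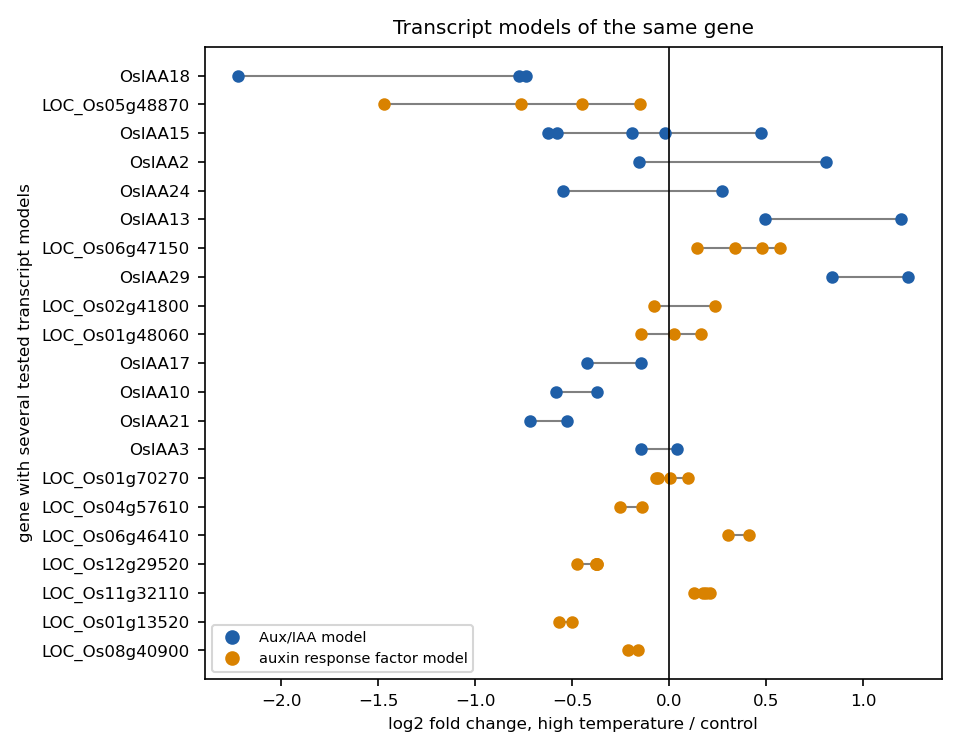
Log2 fold change (high temperature over control, edgeR) of each tested transcript model of the 21 genes with at least 2 tested models, blue for Aux/IAA and orange for ARF, with a line joining the models of a gene. The models of OsIAA18 spread over 1.48 on the log2 scale, and those of LOC_Os08g40900 nearly coincide at -0.21 and -0.16.

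The lowest p among all members belonged to the second model of OsIAA13, which is not its leading model and was singled out after its values were seen. LOC_Os03g53150.2 held 55 and 23 reads in the controls and 59 and 61 at high temperature, which is 2.46 and 2.57 against 5.75 and 5.75 TMM-scaled RPKM. Its log2 fold change was 1.19 (standard error 0.30, edgeR adjusted p = 0.501), from 1.15 to 1.22 with each library left out in turn. The replicates thus lay close together within each temperature. The leading model of OsIAA13, LOC_Os03g53150.1, had 0.49 and a level of 8.21 TMM-scaled RPKM on average, against 4.13 for LOC_Os03g53150.2. Whether the models of OsIAA13 differ in their response was not tested. The other non-leading models with an unadjusted p under 0.05, also seen in the values, were LOC_Os05g44810.2 of OsIAA18 (13 and 13 reads in the controls, 3 and 1 at high temperature) and LOC_Os05g48870.5 (42 and 14 reads, against 9 and 4).

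The study sought stably expressed transcripts, in a first step by the CV (SD over mean, here of the 4 libraries). It asked for a low CV in open microarray data as well, then weighed expression level and isoform number and measured candidates by qRT-PCR. Only the CV in these libraries is covered here. With RPKM computed from the counts and no scaling, 6 of 60 Aux/IAA models (10%) and 10 of the 51 ARF models with reads (19.6%) had a CV below 0.2, against 8.83% of all transcripts with reads. OsIAA19 (LOC_Os05g48590.1) had the lowest CV of the Aux/IAA family (0.0560) and LOC_Os06g09660.1 the lowest of the ARF family (0.105). On the TMM scale these CVs were 0.215 and 0.296, so neither was below 0.2 on both scales. On the TMM scale, 22 ARF models (43.1%) and 7 Aux/IAA models (11.7%) had a CV below 0.2, against 21.1% of all transcripts with reads. Among tested transcripts alone the shares were 46.8% for ARF, 20% for Aux/IAA and 33.1% for all, with medians of 605, 142 and 183.5 reads in the 4 libraries together. The ARF models were longer (median 3224 bases) and had more reads than the rest, and the part of the read number in their lower CV was not tested.

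The lowest CVs on the TMM scale in the ARF family were those of LOC_Os01g48060.2 (0.0784, with 2.04, 1.94, 2.15 and 2.32 TMM-scaled RPKM, the controls first) and LOC_Os08g40900.1 (0.0794, with 6.14, 6.82, 5.76 and 5.81), among leading models. In the Aux/IAA family OsIAA3 (0.126) and OsIAA5 (0.145) were the lowest and OsIAA29 (0.705) the highest among the tested leading models.

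Other auxin genes were read from the same fit by words in their descriptions. The calls in these lists, here and below, stand against 4.15% higher and 2.79% lower among all transcripts tested, at the same unadjusted p. GH3 enzymes conjugate auxin to amino acids, and of 23 models 13 were tested, of which 0 were higher and 1 lower at an unadjusted p under 0.05. That was LOC_Os05g50890.3 (OsGH3.5), with 13.6 and 18.0 TMM-scaled CPM in the controls and 8.51 and 10.1 at high temperature, and its log2 fold change was -0.76 (standard error 0.30, edgeR adjusted p = 0.688). The SAUR genes are early auxin-induced genes, and 10 of 57 models were tested, with 0 higher and 0 lower. Of the auxin efflux carriers, which move auxin out of cells, 11 of 28 models were tested, with 0 higher and 0 lower.

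All 14 models described as auxin-repressed were tested, with 1 higher and 0 lower at an unadjusted p under 0.05. That was LOC_Os03g22270.2, with 7.28 and 10.9 TMM-scaled CPM in the controls and 18.3 and 14.0 at high temperature, and its log2 fold change was 0.84 (standard error 0.32, edgeR adjusted p = 0.686). Of 27 other models described as auxin-induced or auxin-responsive, 11 were tested, with 1 higher (LOC_Os01g02870.1) and 1 lower (LOC_Os05g33900.1). None of the models of these lists passed the adjusted threshold, and no description held the words transport inhibitor response, the name of the auxin receptor.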

How the data were processed

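The authors deposited 1 table for the 4 libraries (Illumina HiSeq 2000), with the transcript length, whole-number read counts and a column headed RPKM per library. The counts are uniquely mapped reads over exons, not normalized. The aligner, build and annotation release are not given in the sources used here. The deposited RPKM columns are treated as a score, because in control replicate 1 the length multiplies instead of dividing, so RPKM was computed from the counts. NA cells were read as 0. No coordinates or sequences were given, and sequence features were not analysed here.

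Counts were tested with edgeR 4.0.16 (TMM, quasi-likelihood, no replicate block, Benjamini-Hochberg adjustment over all transcripts) in R 4.3.3. Standard errors are the log2 fold change over the square root of F. DESeq2 1.42.0 and limma 3.58.1 on log2(RPKM + 1), with RPKM not scaled by TMM, were alternatives. CVs were computed with pandas 2.3.3. The tests were checked on counts simulated with the same dispersion for all transcripts and no composition differences between libraries. That check does not cover the split between the libraries seen here. Per family, the rule named the 6 highest genes, the 3 largest positive and negative log2 fold changes, and genes with an unadjusted p under 0.05. The members, lists and rule were chosen with earlier results of these data known. The number of unused value columns was 0.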

Additional observations from a re-analysis of the deposited data

How the results depend on the processing

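Having only 2 libraries at each temperature limits all comparisons. The count of Aux/IAA and of ARF models past the adjusted threshold was 0 under DESeq2, limma, the other normalization, filters and gene summaries, the replicate block and with each library left out. Over all transcripts, edgeR called 0, DESeq2 58, limma 59, and edgeR without the filter on low counts 365. Leaving out 1 library gave 0 to 345 calls. The same replicate number does not mark shared plants in the labels. With a replicate block edgeR called 0 transcripts. The deviations of same-numbered libraries correlated at -0.38, and a crossed replicate block, chosen after seeing the data, called 828 transcripts, 2 of them Aux/IAA and 1 ARF.

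The Aux/IAA median ran from -0.19 to -0.08 with 1 library left out, and the ARF median from -0.19 to 0.11. Of 25 named models, 20 kept their direction in each of the 8 to 11 alternatives that gave them a value. The gene summaries and the crossed block were not compared model by model. The other 5 changed sign only when 1 library was left out, with ranges of -0.43 to 0.66 for LOC_Os06g09660.1, -0.38 to 0.095 for LOC_Os05g14180.1, -0.26 to 0.13 for LOC_Os01g70270.1, -0.44 to 0.074 for LOC_Os01g48444.1 and -0.36 to 0.013 for LOC_Os01g13030.2.

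The count of models with a CV below 0.2 was 2 (Aux/IAA) and 0 (ARF) on the deposited RPKM columns, 22 (ARF) after TMM scaling and 3 (Aux/IAA) at a mean RPKM of at least 1. With 1 library left out it ran from 5 to 12 and from 10 to 20.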
